A study of Arabidopsis thaliana with 21 samples.

Results

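The 10 genes described here encode core proteins of the Arabidopsis thaliana small RNA pathways: the Dicer-like enzymes DCL1, DCL2, DCL3 and DCL4, the Argonaute proteins AGO1, AGO2 and AGO4, the methyltransferase HEN1, the RNA-dependent RNA polymerase RDR6 and its partner SGS3. They were chosen by name, as 10 of the 32548 genes in the deposited table, and all 10 passed the filter on low values. RNA was sequenced from seedlings of 7 genotypes with 3 libraries each, 21 in all. Plants grew on MS plates for 12 days and then in soil until day 30, under 16 h light and 8 h darkness at 22 °C. Col-0 served as the wild type. Mutants were labelled gcn5-/-, ada2b-c-/-, ada2a-/-, spc-/-, ada2b-c-/-ada2a-/- and ada2b-c-/-spc-/-, and they are written below as gcn5, ada2b-c, ada2a, spc, ada2b-c ada2a and ada2b-c spc. GCN5 is a histone acetyltransferase, and ADA2A and ADA2B are adaptor proteins that bind it. The sources used here do not state the kind of each mutation, what the suffix -c stands for or the gene behind spc. The series asks how the conserved and the plant-specific complexes around GCN5 act together on transcription and growth. Whether the 3 libraries of a genotype are from separate plants is not labelled, so p-values measure the spread between these samples, which may be technical. In bulk seedling RNA, fewer cells of a type and less RNA per cell cannot be told apart.

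Small RNAs silence genes in plants along a few branches that share their machinery. DCL1 cuts microRNAs (miRNAs) from hairpin precursors, DCL2 and DCL4 cut small interfering RNAs (siRNAs) from long double-stranded RNA, and DCL3 makes the longer siRNAs that guide DNA methylation. HEN1 adds a methyl group to the 3′ end of small RNAs and protects them from decay. AGO1 carries most miRNAs and cuts their targets, AGO2 acts in antiviral defence, and AGO4 carries the siRNAs of DCL3 to chromatin. SGS3 binds cleaved transcripts, and RDR6 copies them into double-stranded RNA from which DCL4 cuts trans-acting siRNAs (ta-siRNAs). The pathway also holds itself in check, since miR162 targets DCL1, miR168 targets AGO1 and miR403 targets AGO2.

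These 3 miRNAs and the site that each meets in its target are shown because they tie 3 of the members to precursors measured in the same libraries. Mature sequences and transcripts were read from the RefSeq annotation of TAIR10.1. Capitals mark the seed, bases 2 to 8 of the miRNA, and the bases of the target that lie opposite the seed.
miR162a-3p: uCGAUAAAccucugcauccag
DCL1 site: ctggatgcagaggTaTTATCGa
miR168a-5p: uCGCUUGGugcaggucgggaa
AGO1 site: ttcccgagctgcaTCAAGCTa
miR403-3p: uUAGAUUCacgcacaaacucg
AGO2 site: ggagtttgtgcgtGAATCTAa

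The seeds of the 3 miRNAs differ from one another. The mature arm of miR162a lies on chr5:2634936-2634956 on the minus strand, that of miR168a on chr4:10578652-10578672 on the plus strand and that of miR403 on chr2:19415154-19415174 on the plus strand. The DCL1 site is coding sequence that crosses a splice junction on chr1:27522-27627, plus strand. All 21 bases of miR162a paired there, with 1 target base bulged out, printed in lower case within the capitals. The AGO1 site is coding sequence on chr1:17891529-17891549, minus strand, with 18 bases paired, 1 G:U pair and 2 mismatches. The AGO2 site lies in the 3′ UTR on chr1:11185223-11185243, plus strand, with 20 bases paired and 1 mismatch.

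The genes lie on all 5 chromosomes and give long transcripts. By TAIR10.1, DCL1 (AT1G01040) occupies chr1:23121-31227 with 20 exons and a transcript of 6276 bp, the longest of the 10. DCL4 (AT5G20320, chr5:6859212-6869307) has 5666 bp, DCL3 (AT3G43920, chr3:15753387-15760859) 4890 bp and DCL2 (AT3G03300, chr3:767880-776214) 4824 bp. RDR6 (AT3G49500, chr3:18348974-18353673) has 4271 bp in 2 exons, and SGS3 (AT5G23570, chr5:7942908-7946147) has 2964 bp, the shortest. AGO1 (AT1G48410, chr1:17885633-17892632) and AGO2 (AT1G31280, chr1:11181504-11185396) are nearly equal in length at 3615 and 3602 bp. So are AGO4 (AT2G27040, chr2:11536502-11542391) and HEN1 (AT4G20910, chr4:11185936-11191123), at 3236 and 3256 bp.

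Values are the authors' adjusted signal per gene, with column totals between 27411448 and 58700421. Reads were not given per gene, so the depth behind a value is unknown. The transcripts of the targeted genes were examined first. ADA2A was 66.9 ± 21.3 (SD, n = 3) in Col-0, 32.0 ± 22.1 in ada2a and 3.48 ± 3.36 in ada2b-c ada2a, but 816 ± 34.2 in ada2b-c. GCN5, at 372 ± 51.0 in Col-0, was 275 ± 14.9 in gcn5, which did not pass the test, and ADA2B was 494 ± 213 in Col-0 and 583 ± 27.4 in ada2b-c. Of these 3 genes 1 was called lower in ada2a, where the lowest and the median log2 differences were -1.18 and -1.14. Which of the 3 was called is not given here, so the call cannot be credited to ADA2A. In spc 1 of the 3 was called lower as well, with a lowest difference of -2.03. After the correction described below none was called in ada2a, with a lowest value of -0.68. The transcript levels shown therefore do not check the labels gcn5, ada2b-c and ada2a. Groups are named by label. Root markers PRP3 and COBL9 had means of at most 9.47. Of all 3 root markers tested, 1 was lower in gcn5, ada2b-c and each combined line, as also after the correction described below. Of 3 markers of dividing cells, 1 was lower in ada2b-c and each combined line and 1 higher in ada2a and spc. After the correction 1 was higher in gcn5 and each combined line, beside 22%, 31.1% and 32% of all genes. In ada2b-c, ada2a and spc those calls stayed 1 lower, 1 higher and 1 higher. Of 5 leaf markers, 5 were lower in gcn5, 4 in ada2b-c, 5 in each combined line and 4 in spc, with median log2 differences of -1.23, -3.13, -2.18, -2.50 and -0.49, and after the correction described below 5, 5, 5, 5 and 4 were lower. In ada2a 1 was higher. CAB1, of the light-harvesting complex, still averaged 152302 in ada2b-c. Of 6 floral organ genes, 6 were lower in ada2b-c, with a median log2 difference of -4.69, and 6 in each combined line. In gcn5 3 were lower, with a median of -1.07, while 2 were higher in ada2a and 3 in spc. After the correction 6 were lower in ada2b-c, 5 in each combined line and 2 in gcn5, and 2 were higher in each of ada2a and spc. Of all genes, 18.7% were lower in gcn5, 33.6% in ada2b-c, 32.1% in ada2b-c ada2a, 33.3% in ada2b-c spc and 25.7% in spc. In ada2a 19.8% were higher, and in spc 21.7%. After the correction these shares were 19.9%, 28.7%, 27%, 28.7% and 20.1% lower, and 15.3% and 17.3% higher. The summed signal of the 6 floral organ genes was 826 to 1075 in Col-0 and 376 to 512 in gcn5. In ada2b-c it was 57.4 to 73.8, in ada2b-c ada2a 195 to 237 and in ada2b-c spc 131 to 163. It was 1778 to 1975 in ada2a and 2110.1 to 2397 in spc, and AG was listed at or near 0 in all ada2b-c libraries. The part of leaf, flower, root and dividing-cell markers in the results below was not tested.

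The libraries also differ in how the signal depends on transcript length. The length slope, the change in log2 signal for each doubling of transcript length over all genes with a mean of at least 10, was -0.15, -0.27 and -0.53 in the 3 Col-0 libraries. It was 0.92, 0.88 and 0.85 in ada2b-c, 0.59, 0.83 and 0.64 in ada2b-c ada2a, and 0.72, 0.70 and 0.81 in ada2b-c spc. In ada2a it was -0.70, -0.81 and -1.16, in spc -0.65, -1.34 and -0.99, and in gcn5 0.21, 0.01 and -0.56. Long transcripts thus stood higher in all libraries that contain ada2b-c and lower in all ada2a and spc libraries than in any Col-0 library. The members are long, so differences are given as deposited, and also after a correction in which a smooth curve over transcript length and GC content was subtracted from every library. Length slope and genotype cannot be told apart for the lines with ada2b-c, for ada2a or for spc, since no library of these overlaps Col-0 in slope. Within gcn5, replicate 3 had the lowest slope, and it also had the lowest value of the 3 gcn5 libraries for all 10 members.

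**Figure D1:**
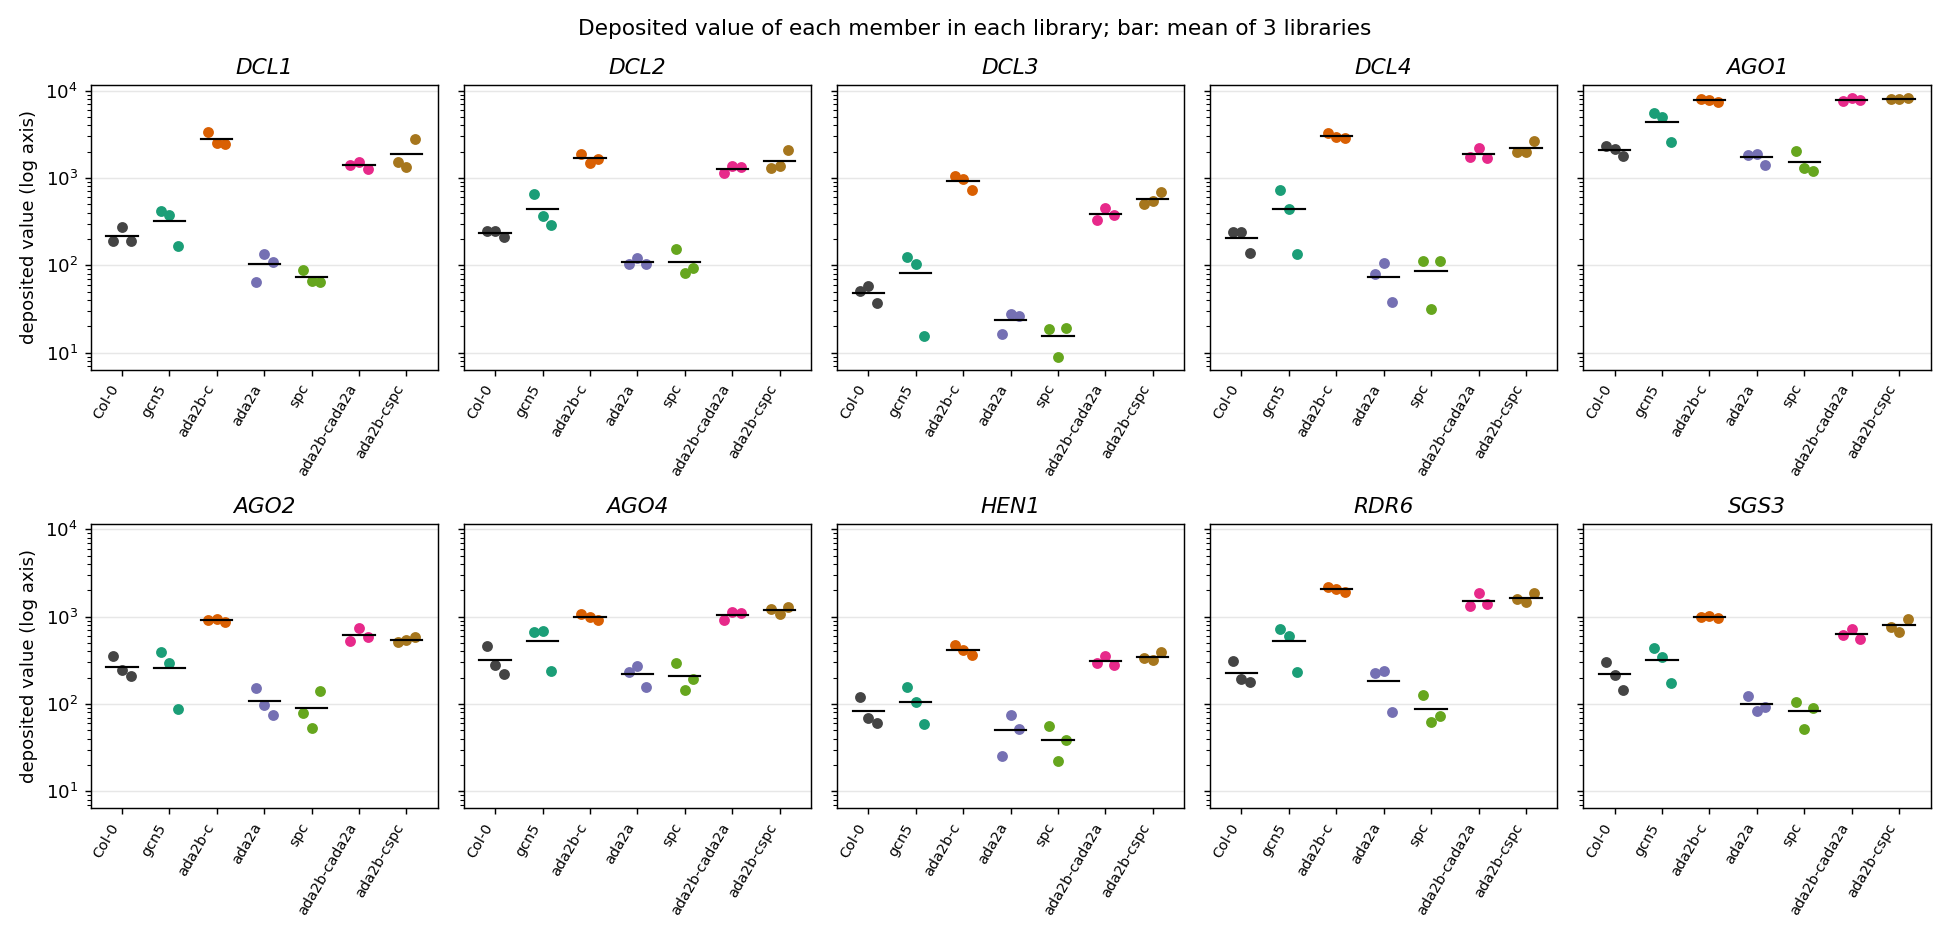
Deposited signal of the 10 genes on a log axis, with a point for each of the 21 libraries grouped by genotype and a bar at each genotype mean. For all 10 genes the libraries of the 3 lines with ada2b-c stand above every Col-0 library, as with DCL1 at 1276 to 3396 against 189.5 to 273. Of all genes tested, 77.8% did not overlap Col-0 in ada2b-c, in either direction. The share was 73.6% in ada2b-c ada2a and 76.1% in ada2b-c spc.

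DCL1, the miRNA-producing enzyme, was measured at 190.1, 273 and 189.5 in Col-0, 64.3, 136 and 108 in ada2a, and 88.4, 65.5 and 63.7 in spc. It reached 3396, 2501 and 2471 in ada2b-c, 1422, 1537 and 1276 in ada2b-c ada2a, and 1516, 1339 and 2775 in ada2b-c spc. In gcn5 the values were 419.5, 377 and 165. The ada2a and spc values lay below all Col-0 values, those of the 3 lines with ada2b-c lay above, and gcn5 overlapped Col-0. The log2 difference from Col-0 was 3.68 ± 0.34 (SE) in ada2b-c, with an adjusted p of 1.01e-08 (limma, Benjamini-Hochberg over 23290 genes). After the correction it was -0.05 ± 0.24, with an adjusted p of 0.869. In ada2a and spc DCL1 fell by 1.12 and 1.57 on the log2 scale (adjusted p = 0.0141 and 0.00141). It remained lower there after the correction, at -0.95 and -0.79 (adjusted p = 0.00478 and 0.0120). The deposited ada2a call was lost without Col-0 replicate 2 or ada2a replicate 1, and the corrected spc call without Col-0 replicate 3, at -0.65. Without Col-0 replicate 1 the corrected values in gcn5, ada2b-c ada2a and ada2b-c spc passed as lower, at -0.66, -0.71 and -0.60. With the libraries' length slope as a covariate in place of the correction, the ada2a and spc values were -0.58 and -0.93. Neither passed, whereas the ada2b-c difference was 2.55 and passed (adjusted p = 0.000519). The gcn5 value was then 0.28 and did not pass, and ada2b-c ada2a and ada2b-c spc passed as higher, at 1.77 and 2.05. The DCL1 locus overlaps 2 genes on the opposite strand, by 788 exonic bp with the noncoding RNA AT1G03993, listed at or near 0 in all libraries, and by 58 bp with PPa1. It also holds MIR838 within an intron. The sources used here do not state whether counting used strand, so reads of overlapping genes cannot be told apart.

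DCL2, an siRNA-producing enzyme of the antiviral branch, was measured at 247.7, 245.6 and 208 in Col-0, 102.5, 120.1 and 102.5 in ada2a, and 155, 82.3 and 94.1 in spc. It reached 1883, 1481 and 1664 in ada2b-c, 1129, 1371 and 1319 in ada2b-c ada2a, and 1282, 1384 and 2068 in ada2b-c spc. The gcn5 values were 659, 369 and 292, above all 3 Col-0 values. No mutant overlapped Col-0. DCL2 rose in gcn5 by 0.83 ± 0.27 (adjusted p = 0.0229) and in ada2b-c by 2.83 ± 0.27 (adjusted p = 1.99e-08). It fell by 1.10 in ada2a and by 1.13 in spc (adjusted p = 0.00479 and 0.00298). After the correction the ada2a call alone remained among these 4, at -0.61 (adjusted p = 0.0278), and it was lost without Col-0 replicate 3, ada2a replicate 1 or ada2a replicate 2, and with the slope covariate (-0.46, adjusted p = 0.180). The deposited gcn5 call was lost without Col-0 replicate 3 or gcn5 replicate 1, at 0.75 and 0.49. AT3G03305 lies on the same strand and shares 515 exonic bp with DCL2. Its own values were 525 ± 22.6 in Col-0, 823 ± 31.1 in ada2b-c and 268 ± 57.4 in ada2a, so the split of reads between the genes is uncertain.

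DCL3, the enzyme of the DNA methylation branch, was the lowest Dicer in every library. It was measured at 50.2, 58.6 and 36.7 in Col-0, 16.6, 27.4 and 26.5 in ada2a, and 18.6, 9.01 and 19.0 in spc. The lines with ada2b-c gave 1064, 983 and 730.2, then 334, 452 and 372 with ada2a, and 508, 545 and 685 with spc. In gcn5 the values ran from 15.4 in replicate 3 to 104 and 125 in the others, on both sides of Col-0. DCL3 had the largest difference of the 10 genes in ada2b-c, 4.23 ± 0.52 (adjusted p = 5.03e-07), and 1.2 ± 0.33 of it remained after the correction (adjusted p = 0.00301). That corrected call held without each of the 6 libraries in turn, at 1.12 to 1.33. With the slope covariate the value was 1.65 and did not pass (adjusted p = 0.0618). In ada2b-c spc the corrected value was 0.76 (adjusted p = 0.0497), and that call was lost when any of the 6 libraries was left out. DCL3 fell by 1.63 in spc (adjusted p = 0.0154), a call lost without Col-0 replicate 2 or spc replicate 2, and its corrected value there was -0.74 (adjusted p = 0.0781) and -0.16 with the covariate. Without spc replicate 3 that corrected value passed, at -0.97. In ada2a it was -1.02 (adjusted p = 0.119), or -0.56 after the correction.

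DCL4, which makes ta-siRNAs, was measured at 242, 240.8 and 139.8 in Col-0, 78.6, 105 and 37.7 in ada2a, and 113, 31.3 and 111 in spc. It reached 3284, 2953 and 2868 in ada2b-c, 1739, 2206 and 1706 in ada2b-c ada2a, and 2005, 2003 and 2611 in ada2b-c spc. The gcn5 values for DCL4 were 728, 445 and 136. The ada2a and spc values lay below and the values with ada2b-c above the whole Col-0 range, which gcn5 spanned. DCL4 rose by 3.90 ± 0.50 in ada2b-c (adjusted p = 1.01e-06), and the corrected value was 0.52 ± 0.29 (adjusted p = 0.121). It fell by 1.55 in ada2a (adjusted p = 0.0201), and the corrected value there, -1.18 ± 0.29, also passed (adjusted p = 0.00425). In spc it fell by 1.44 (adjusted p = 0.0244), and the corrected value, -0.60, missed the threshold (adjusted p = 0.107). The slope covariate gave 0.04 in ada2a and 0.44 in spc, neither of which passed. Without Col-0 replicate 1, Col-0 replicate 2 or ada2a replicate 3 the deposited ada2a call was lost. Without Col-0 replicate 1, Col-0 replicate 2 or spc replicate 2 the spc call was lost, at -0.84 in the last case, and without spc replicate 3 the corrected spc value, -0.96, passed.

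AGO1, the main miRNA effector, was the most abundant member per kilobase of transcript in all 7 genotypes, with no overlap with the next. Its values were 2335, 2140 and 1787 in Col-0, 1847, 1900 and 1398 in ada2a, and 2006, 1294 and 1205 in spc. It reached 8019, 7759 and 7342 in ada2b-c, 7555, 8199 and 7755 in ada2b-c ada2a, and 8003, 7984 and 8242 in ada2b-c spc. In gcn5 it was 5465, 4918 and 2600. The gcn5 libraries and the libraries with ada2b-c all lay above Col-0, while ada2a and spc overlapped it. AGO1 rose by 0.99 ± 0.23 in gcn5 (adjusted p = 0.00195), and after the correction by 0.39 ± 0.13 (adjusted p = 0.0216). The corrected call was lost without Col-0 replicate 1, Col-0 replicate 2 or gcn5 replicate 3, at 0.34, 0.33 and 0.33. In ada2b-c it rose by 1.89 ± 0.23 (adjusted p = 4.04e-07), with a corrected value of -0.27 ± 0.13 (adjusted p = 0.0727). The differences of -0.29 in ada2a and -0.50 in spc did not pass (adjusted p = 0.322 and 0.0728), and the corrected values were 0.02 and 0.22. Without spc replicate 1 the spc value passed, at -0.73.

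AGO2, the antiviral Argonaute, was measured at 351, 247 and 207 in Col-0, 152, 97.6 and 75.0 in ada2a, and 79.4, 53.5 and 139 in spc. It reached 927, 942 and 869 in ada2b-c, 524, 739 and 587 in ada2b-c ada2a, and 511.5, 542 and 584.5 in ada2b-c spc. The gcn5 libraries gave 395, 293 and 88.8, on both sides of Col-0. The ada2a and spc values lay below all Col-0 values, and both combined lines lay above Col-0 but below ada2b-c. AGO2 rose by 1.80 ± 0.42 in ada2b-c (adjusted p = 0.000775), 1.22 in ada2b-c ada2a (adjusted p = 0.0154) and 1.05 in ada2b-c spc (adjusted p = 0.0320). The call in ada2b-c ada2a was lost without Col-0 replicate 3 or ada2b-c ada2a replicate 2, and that in ada2b-c spc without any of its 6 libraries except Col-0 replicate 1. AGO2 fell by 1.33 in ada2a (adjusted p = 0.0172), lost without Col-0 replicate 1 or ada2a replicate 3, and by 1.63 in spc (adjusted p = 0.00436). The correction gave -0.36 in ada2b-c, which did not pass (adjusted p = 0.266), and turned both combined lines below Col-0, to -0.71 (adjusted p = 0.0351) and -1.02 (adjusted p = 0.00363). AGO2 was also lower after the correction in gcn5, ada2a and spc, at -0.86, -1.01 and -0.90 (adjusted p = 0.0172, 0.00958 and 0.0158). Leaving out each library in turn kept the corrected call in ada2b-c spc in 6 of 6 cases, at -0.94 to -1.14. The call in ada2a was lost without ada2a replicate 2, at -0.81. The call in gcn5 was lost without Col-0 replicate 1, Col-0 replicate 3 or gcn5 replicate 3, at -0.79, -0.81 and -0.61. In spc it was lost without Col-0 replicate 1, spc replicate 1 or spc replicate 2, and in ada2b-c ada2a it was kept only without Col-0 replicate 2. With the slope covariate AGO2 passed in gcn5 alone, at -0.66 (adjusted p = 0.0412).

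AGO4, the Argonaute of DNA methylation, was measured at 460.0, 278 and 219.5 in Col-0, 232, 275 and 155 in ada2a, and 297, 144 and 195 in spc. It reached 1072, 993 and 909 in ada2b-c, 919, 1138 and 1094 in ada2b-c ada2a, and 1221, 1060 and 1276 in ada2b-c spc. In gcn5 it was 672, 686 and 240.0. Only the lines with ada2b-c stood clear of Col-0, with differences of 1.70 ± 0.35, 1.78 and 1.96 (adjusted p = 0.000247, 0.000182 and 6.14e-05). After the correction AGO4 passed in no comparison with Col-0 in the limma fit, where the values ran from -0.18 in ada2b-c to 0.20 in spc. Its corrected genotype means spanned 0.38 on the log2 scale, the narrowest range of the 10 genes.

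HEN1, the small RNA methyltransferase, was measured at 119, 69.3 and 60 in Col-0, 25.6, 75.7 and 51.9 in ada2a, and 55.6, 22.4 and 38.7 in spc. It reached 470.4, 417 and 363 in ada2b-c, 294, 350.3 and 278 in ada2b-c ada2a, and 334, 320.2 and 395 in ada2b-c spc. The HEN1 values in gcn5 were 156, 105 and 59.6. The spc values lay below Col-0 and those with ada2b-c above it, while ada2a and gcn5 overlapped it. HEN1 rose by 2.37 ± 0.40 in ada2b-c (adjusted p = 2.76e-05) and fell by 1.10 in spc (adjusted p = 0.0297). The corrected values, 0.51 and -0.24, did not pass (adjusted p = 0.143 and 0.555). The spc call was lost without Col-0 replicate 1, spc replicate 2 or spc replicate 3.

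RDR6, which copies cleaved transcripts, was measured at 309.5, 192 and 179.6 in Col-0, 227, 241 and 80.5 in ada2a, and 127, 62.9 and 73.4 in spc. It reached 2199, 2056 and 1934 in ada2b-c, 1329, 1843 and 1395 in ada2b-c ada2a, and 1609, 1482 and 1874 in ada2b-c spc. In gcn5 it was 724, 603 and 234. Libraries with ada2b-c lay above Col-0 and spc libraries below it, and ada2a and gcn5 overlapped it. RDR6 rose by 3.22 ± 0.40 in ada2b-c (adjusted p = 6.11e-07), and 0.51 ± 0.20 remained after the correction (adjusted p = 0.0342). That corrected call was lost without Col-0 replicate 2 or any 1 of the ada2b-c libraries. RDR6 rose by 1.08 in gcn5 (adjusted p = 0.0407) and fell by 1.38 in spc (adjusted p = 0.00899), and neither passed after the correction (0.43 and -0.51). The gcn5 call was lost without Col-0 replicate 2 or 3 or gcn5 replicate 1 or 2, and the spc call without Col-0 replicate 1 or spc replicate 2. Without Col-0 replicate 2 or spc replicate 1 the corrected spc value passed, at -0.70 and -0.60.

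SGS3, the partner of RDR6, was measured at 305, 216 and 145 in Col-0, 125, 82.4 and 93.1 in ada2a, and 106, 51.8 and 89.4 in spc. It reached 989, 1023 and 955 in ada2b-c, 614, 713.5 and 561 in ada2b-c ada2a, and 754, 675 and 952 in ada2b-c spc. For gcn5 the SGS3 values were 437, 348 and 172. As for DCL4, ada2a and spc lay below the Col-0 range, the lines with ada2b-c above it, and gcn5 overlapped it. SGS3 rose by 2.21 ± 0.33 in ada2b-c (adjusted p = 5.64e-06), with a corrected 0.57 ± 0.19 that passed (adjusted p = 0.0140) and was lost without Col-0 replicate 3. It fell by 1.10 in ada2a and by 1.42 in spc (adjusted p = 0.0130 and 0.00220). The corrected values there, -0.59 and -0.63, passed as well (adjusted p = 0.0257 and 0.0155), but not with the slope covariate (-0.19 and -0.34). In ada2a the deposited and the corrected call were lost without Col-0 replicate 1 or ada2a replicate 2, the corrected values being -0.45 and -0.35. In spc the corrected call was lost without Col-0 replicate 1 or spc replicate 2.

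Per kilobase of transcript, the Col-0 signal was 577 ± 76.9 for AGO1, 98.6 for AGO4, 74.9 for SGS3, 74.5 for AGO2, 53.1 for RDR6 and 48.5 for DCL2. DCL4 at 36.6, DCL1 at 34.7 and HEN1 at 25.5 came next, and DCL3 was last at 9.92 ± 2.26. AGO4 through DCL2 overlapped with their neighbours in that order, and so did DCL4, DCL1 and HEN1. In ada2b-c, AGO1 at 2132 ± 94.4 per kilobase was followed by DCL4 at 536, RDR6 at 483 and DCL1 at 444. DCL2 at 347, SGS3 at 334 and AGO4 at 306 overlapped with their neighbours, and AGO2 at 253, DCL3 at 189 and HEN1 at 128 ± 16.5 did not. DCL4 and DCL1, the longest transcripts, stood below AGO4, SGS3 and AGO2 in Col-0 and above them in ada2b-c. Dividing by length does not remove a library's length slope, so this order is that of the uncorrected values.

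Counted over the list, 10 of 10 members were higher in ada2b-c, where 32.4% of all genes tested were called higher. The median log2 difference was 2.60, beside -0.06 over all genes. In ada2b-c ada2a 10 of 10 were higher with a median of 2.19, where 30.4% of genes were higher, and in ada2b-c spc 10 of 10 with a median of 2.42, where 31.4% were. In ada2a 5 of 10 were lower and none higher, with a median of -1.06, where 19.9% of genes were lower. In spc 8 of 10 were lower, with a median of -1.40, where 25.7% were lower. In gcn5 3 of 10 were higher, AGO1, DCL2 and RDR6, with a median of 0.57, where 15.6% were higher. All 6 comparisons share the same Col-0 libraries, so their directions are not independent of each other. Without gcn5 replicate 3, 8 of 10 were higher in gcn5, where 19.6% of genes were higher, with DCL4 at 1.5, DCL3 at 1.24, AGO4 at 1.16, DCL1 at 0.89 and SGS3 at 0.87 added. When each group was compared with Col-0 in a fit of those 6 libraries alone, 0 members passed in gcn5, where 23.3% of genes were called. That fit called 2 members in ada2a, beside 20.6% of genes, and 4 in spc, beside 19.1%.

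**Figure D2:**
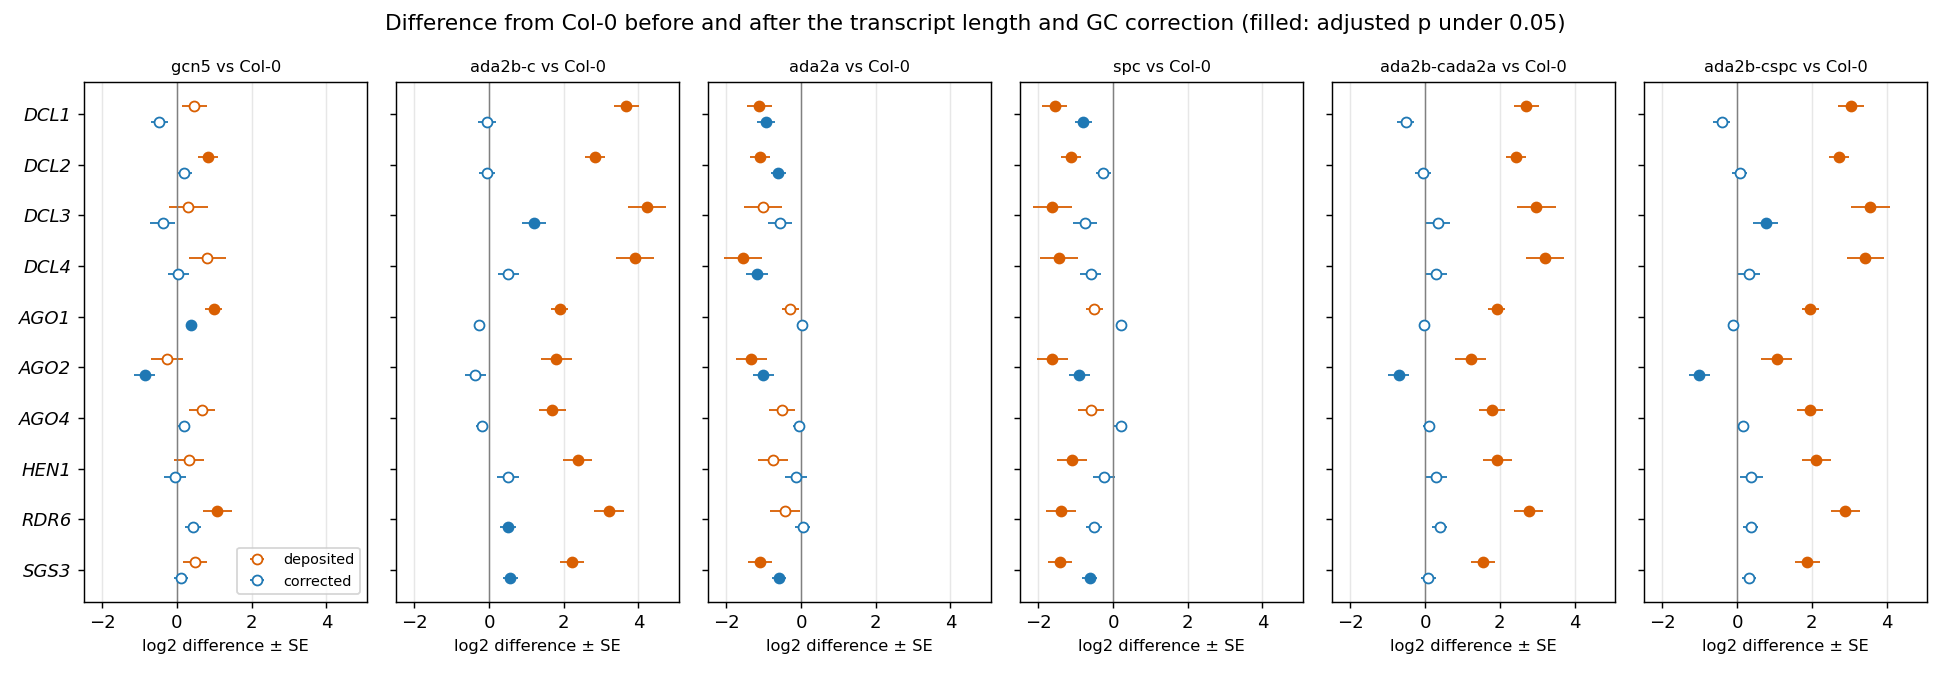
Log2 difference of each gene from Col-0 with its standard error in the 6 mutants, as deposited and after the length and GC correction, with filled points for adjusted p below 0.05. As deposited, all 10 genes are above 0 in the lines with ada2b-c, and after the correction 3 are called higher in ada2b-c, none in ada2b-c ada2a and 1 in ada2b-c spc.

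After the correction the counts were smaller in 5 of the 6 comparisons and unequal in which genes they held. In ada2b-c 3 members were higher, DCL3, RDR6 and SGS3, where 35.4% of all genes were higher, so their share was near that of the background. In ada2b-c ada2a AGO2 was lower, where 27% were, and in ada2b-c spc DCL3 was higher and AGO2 lower, where 32% were higher and 28.7% lower. In ada2a 5 members were lower, DCL1, DCL2, DCL4, AGO2 and SGS3, where 17.9% were, and in spc 3 were, DCL1, AGO2 and SGS3, where 20.1% were. In gcn5 AGO1 was higher and AGO2 lower, where 22% of genes were higher and 19.9% lower.

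With the length slope as a covariate, DCL1, DCL2 and AGO1 were the 3 members called in ada2b-c and in each of the combined lines, all higher, with DCL1 at 2.55, 1.77 and 2.05. Of all genes, 45%, 43.2% and 44.9% were called there in either direction. RDR6 at 0.80 was then the only member called in ada2a and AGO4 at 0.66 the only one in spc, both higher, beside 15.3% and 13% of genes. In gcn5 AGO1, DCL2 and RDR6 were higher and AGO2 lower with the covariate, beside 48.9% of genes. The correction and the covariate thus called different members in every comparison except gcn5, where AGO1 was higher and AGO2 lower with either.

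Across the 10 genes, the deposited difference in ada2b-c was larger the longer the transcript, with a Pearson r of 0.84 against log2 length. The r was 0.83 in ada2b-c ada2a, 0.79 in ada2b-c spc, -0.44 in ada2a, -0.46 in spc and 0.19 in gcn5. After the correction it was 0.15, -0.10, -0.003, -0.56, -0.43 and -0.22 in the same order. These values describe 10 genes from the same libraries and carry no p.

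**Figure D3:**
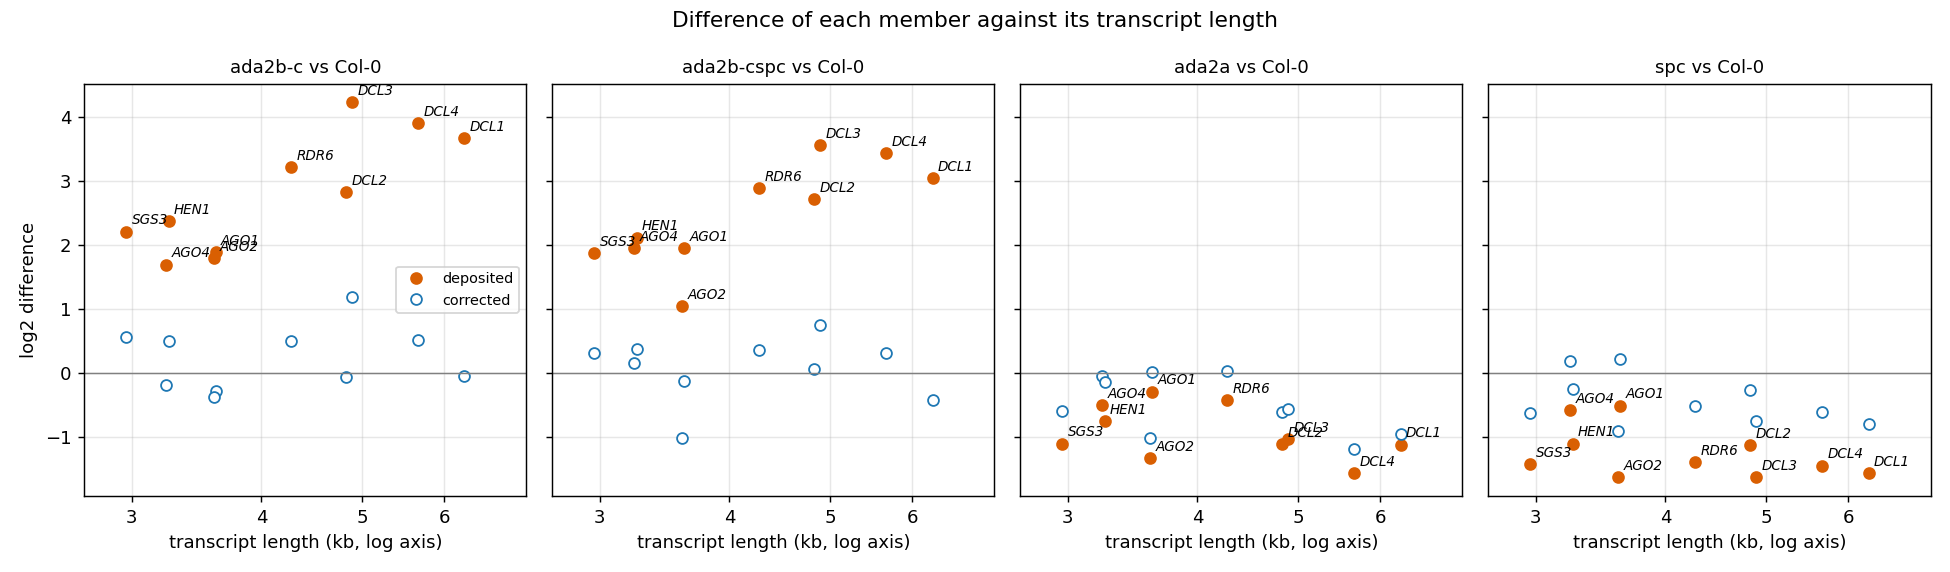
Log2 difference from Col-0 against transcript length in kb on a log axis for the 10 genes, as deposited and after the length and GC correction. Panels show ada2b-c, ada2b-c spc, ada2a and spc. In ada2b-c the deposited differences run from 1.70 for AGO4 at 3236 bp to 4.23 for DCL3 at 4890 bp, and DCL1, the longest at 6276 bp, is at 3.68.

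Pairs of members of nearly equal length offer a comparison in which a length slope has little room to act. AGO2 and AGO1, DCL3 and DCL2, and HEN1 and AGO4 were paired for this by length, after the data had been examined, and the ratio was taken within each library. AGO2 was 0.150, 0.115 and 0.116 of AGO1 in Col-0, 0.116, 0.121 and 0.118 in ada2b-c, and 0.0723, 0.0595 and 0.0342 in gcn5. The mean ratio was 0.0624 ± 0.0171 (SD, n = 3) in ada2a, 0.0784 ± 0.0106 in ada2b-c ada2a and 0.0676 ± 0.00352 in ada2b-c spc. Every library of these 3 genotypes and of gcn5 lay below all Col-0 and all ada2b-c libraries, whereas spc, with 0.0396, 0.0414 and 0.116, reached the Col-0 range in 1 library. The log2 difference of the ratio from Col-0 was -1.26 ± 0.35 (SE) in gcn5, -1.05 ± 0.25 in ada2a, -0.70 ± 0.17 in ada2b-c ada2a and -0.90 ± 0.13 in ada2b-c spc. Against ada2b-c it was -0.60 ± 0.11 in ada2b-c ada2a and -0.81 ± 0.05 in ada2b-c spc. In ada2b-c itself it was -0.09 ± 0.13.

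DCL3 was 0.206 ± 0.0314 of DCL2 in Col-0 and 0.565, 0.664 and 0.439 of it in ada2b-c. It was 0.303 ± 0.0246 in ada2b-c ada2a and 0.374 ± 0.0369 in ada2b-c spc, and both combined lines lay between Col-0 and ada2b-c without overlap. The log2 difference from Col-0 was 1.42 ± 0.22 in ada2b-c, 0.56 ± 0.14 in ada2b-c ada2a and 0.87 ± 0.15 in ada2b-c spc. DCL2 shares 515 exonic bp with AT3G03305 on the same strand, and the part of shared reads in this ratio was not tested. HEN1 was 0.261 ± 0.012 of AGO4 in Col-0 and 0.439, 0.420 and 0.399 of it in ada2b-c, a log2 difference of 0.69 ± 0.06. The ratio was 0.180 ± 0.0226 in spc, below Col-0 by a log2 difference of -0.54 ± 0.11, and 0.211 ± 0.0513 in gcn5, at -0.34 ± 0.22, both without overlap. In ada2b-c ada2a and ada2b-c spc it was 0.294 ± 0.0346 and 0.295 ± 0.0187, below ada2b-c by -0.52 ± 0.11 and -0.51 ± 0.07, and the first of these lines overlapped Col-0, while the second lay above it by 0.18. In an exact two-sided permutation test, 3 against 3 libraries can give no p below 0.1. The non-overlapping ratios all stand at that p, or 0.167 after adjustment over the 30 comparisons, so none passes a threshold of 0.05.

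**Figure D4:**
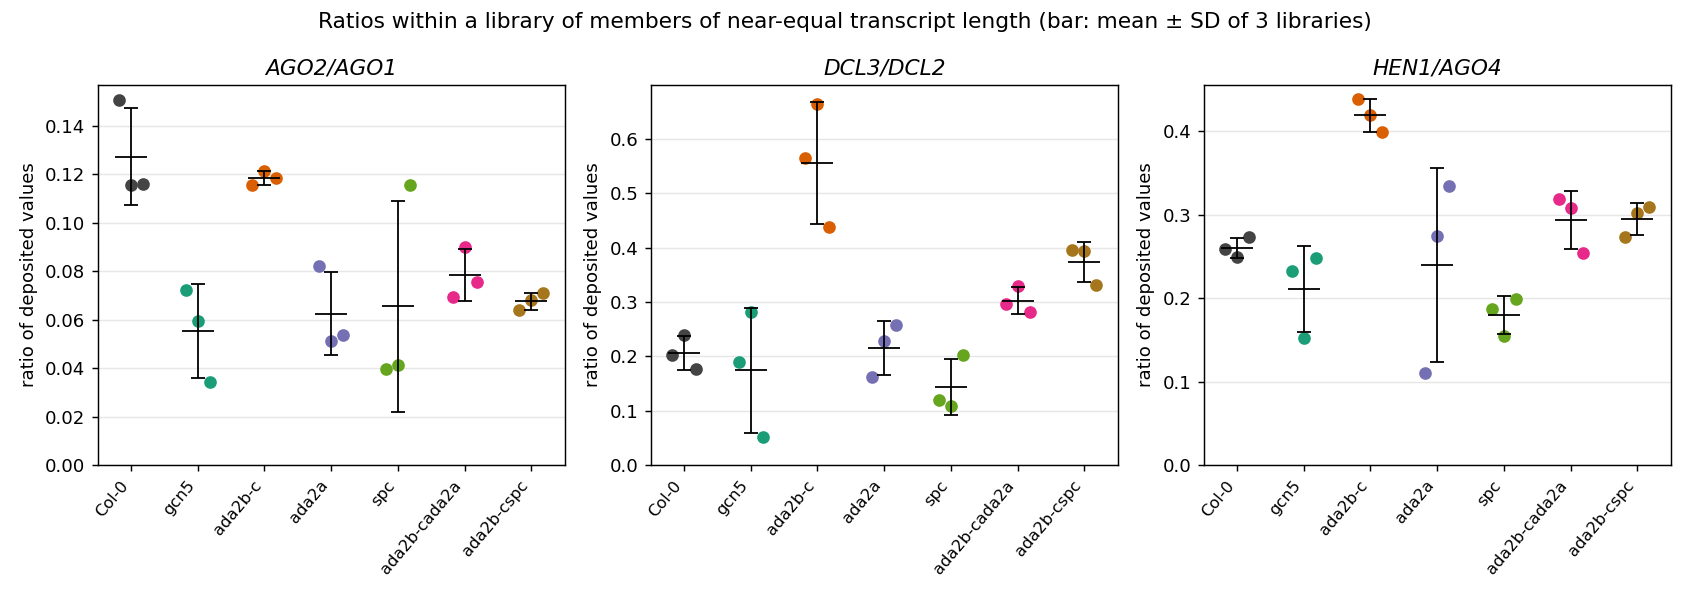
Ratio of AGO2 to AGO1, DCL3 to DCL2 and HEN1 to AGO4 within each library on a linear axis, by genotype, with bars for mean ± SD. The AGO2 to AGO1 ratio is 0.115 to 0.150 in Col-0 and 0.116 to 0.121 in ada2b-c, and at most 0.0723 in gcn5.

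Whether a second mutation moved the genes further was asked against ada2b-c, nearer to the combined lines in length slope than Col-0. All ada2b-c slopes, 0.85 to 0.92, lay above those of the combined lines, 0.59 to 0.83, so slope and genotype cannot be told apart here. In ada2b-c ada2a against ada2b-c, limma called 0 of 10 members, where 15.7% of genes were called, and 2 members were lower at an unadjusted p below 0.05. DCL1 at -0.97 ± 0.34 (adjusted p = 0.0549) and DCL3 at -1.25 ± 0.52 (adjusted p = 0.111) had the largest differences. After the correction these were -0.47 and -0.86, and neither passed (adjusted p = 0.159 and 0.0623). In ada2b-c spc against ada2b-c limma also called 0, where 9.18% of genes were called, and 0 members passed an unadjusted p of 0.05. Fitted on the groups compared alone, 5 members were lower in ada2b-c ada2a, namely DCL1, DCL3, DCL4, AGO2 and SGS3, and 2 in ada2b-c spc, DCL4 and AGO2, beside 38% and 31.6% of genes. The libraries of 8 members did not overlap in the first of these comparisons and those of 5 in the second, beside 52.2% and 47.7% of all genes. With the slope covariate, DCL1 was lower in ada2b-c ada2a at -0.78 (adjusted p = 0.0426). AGO4 was then higher in both combined lines, at 0.44 and 0.51 (adjusted p = 0.0478 and 0.0267). That fit called 30.3% and 21.8% of genes.

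Between spc and ada2a limma called 0 of 10 members, where 1.03% of genes were called, and 1 was lower at an unadjusted p below 0.05. That member was RDR6, at -0.96 (adjusted p = 0.289), and with the slope covariate it was called lower in spc, at -0.74 (adjusted p = 0.0173), where 7.21% of genes were called. After the correction RDR6 passed without ada2a replicate 3, at -0.86, and DCL4 without spc replicate 2, at 1.09. Between the combined lines it called 0, where 0.468% of genes were called, with 0 at an unadjusted p below 0.05, and the differences of ada2b-c spc from ada2b-c ada2a ran from -0.16 for AGO2 to 0.58 for DCL3.

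Of the other genes of the small RNA pathways, 44 were tested. In ada2b-c 30 were higher and 2 lower, with a median of 1.93, beside 32.4% and 33.6% of all genes. After the correction 21 were higher and 8 lower, beside 35.4% and 28.7%. With the slope covariate 8 were higher and 8 lower, beside 45% of genes in either direction. TGH, a factor of miRNA precursor processing, rose from 71.6 ± 20.2 in Col-0 to 2199 ± 61.1 in ada2b-c, by 4.96 ± 0.54 on the log2 scale (adjusted p = 1.24e-07), and by 3.13 after the correction. CDC5, which also promotes miRNA production, rose from 462 ± 157 to 7696 ± 118, by 4.12, and by 2.26 after the correction. NRPD2A, the shared second-largest subunit of the plant RNA polymerases IV and V, rose by 4.01, or 1.44 after the correction. NRPE1, the largest subunit of RNA polymerase V, rose by 4.39, and its corrected value of 0.61 did not pass (adjusted p = 0.123). In ada2b-c ada2a 29 were higher and 5 lower, beside 30.4% and 32.1% of genes, and in ada2b-c spc 30 and 4, beside 31.4% and 33.3%. After the correction 21 were higher and 6 lower in the first, where 31.1% of genes were higher and 27% lower. In the second 23 were higher and 6 lower, beside 32% and 28.7%. The covariate gave 10 and 8, and 12 and 8, beside 43.2% and 44.9% of genes in either direction. In these lines NRPE1 stood at 4.13 and 4.46 and TGH at 3.70 and 4.18. NRPD2A was 3.65 in the first, CDC5 3.90 in the second, and AGO5 3.74 and 3.87, or 1.96 in each after the correction. Corrected values were 0.85 and 0.93 for NRPE1, 2.06 and 2.41 for TGH, 1.37 for NRPD2A and 2.13 for CDC5, and all passed. With the slope covariate TGH in the first line and AGO5 in both did not pass (adjusted p = 0.115, 0.0789 and 0.0793).

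In ada2a 15 of the 44 were lower and 1 higher, with a median of -0.54, beside 19.9% and 19.8% of all genes. After the correction 10 were lower and 3 higher, beside 17.9% and 15.3%. With the slope covariate 2 were lower and 7 higher, with a median of 0.25, beside 15.3% of genes in either direction. The 1 gene that rose as deposited was AGO5, by 2.20 (adjusted p = 0.0386), or 2.63 after the correction. Its covariate value, 2.63, did not pass (adjusted p = 0.0835). The deposited call was lost without Col-0 replicate 1 (1.32), Col-0 replicate 2, ada2a replicate 1 or ada2a replicate 3. In spc 20 were lower and none higher, with a median of -0.76, beside 25.7% and 21.7%. There the correction left 12 lower and 5 higher, with a median of -0.11, beside 20.1% and 17.3%. The covariate left 1 lower and 2 higher, with a median of 0.14, beside 13% of genes in either direction. AGO7, which carries miR390 to the TAS3 transcript, fell by 1.55 in ada2a and by 2.09 in spc (adjusted p = 0.00646 and 0.000659). Its corrected values, -0.92 and -1.26, passed as well, but its covariate values, -0.60 and -0.97, did not. TEX1 and DRB4, which act in ta-siRNA production, fell by 1.47 and 1.22 in ada2a, with corrected values of -1.63 and -1.17 that passed. With the covariate TEX1 passed, at -0.91, and DRB4 did not, at -0.62. In spc the RNA helicase SDE3 fell by 1.92, AGO6 by 1.75 and RDR1 by 1.43, of which SDE3 and RDR1 passed after the correction. With the covariate AGO6 alone of these passed, at -1.81, and SDE3 and RDR1 were 0.07 and -0.38. In gcn5 15 were higher and 4 lower, beside 15.6% and 18.7% of genes, led by AGO5 at 3.29, RTL1 at 2.82, AGO9 at 2.47 and NRPE1 at 1.67. After the correction 13 were higher and 6 lower, beside 22% and 19.9%. With the covariate 17 were higher and 9 lower, beside 48.9% of genes in either direction. AGO5, RTL1 and AGO9 passed after the correction, at 2.77, 3.14 and 2.03. NRPE1 overlapped Col-0, its corrected value of 0.66 did not pass (adjusted p = 0.130), and its call was lost without Col-0 replicate 1, Col-0 replicate 3, gcn5 replicate 1 or gcn5 replicate 2. RTL1, an RNase III that cuts small RNA precursors, went from 4.46 ± 2.19 in Col-0 to 35.7 ± 6.71 in gcn5.

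AGO5, a germline Argonaute, differed between the combined lines and ada2b-c. It ran from 0 to 4.96 in ada2b-c, 0.0518 to 8.66 in Col-0, 37.4 to 53.2 in ada2b-c ada2a and 41.7 to 71.5 in ada2b-c spc. The combined lines thus lay above every ada2b-c and Col-0 library. Against ada2b-c the differences were 3.88 ± 0.82 (adjusted p = 0.00271) and 4.0 ± 0.82 (adjusted p = 0.00321), and 4.09 and 4.10 after the correction. It was the 1 gene of the 44 higher in ada2b-c ada2a against ada2b-c, where 9.45% of all genes were higher, and ABH1 at -0.92, SQN at -0.81 and SDE5 at -0.77 were lower, where 6.2% were. In ada2b-c spc AGO5 and AGO3 (2.19) were higher and SQN (-0.80) lower, beside 5.88% and 3.29% of genes. When any 1 ada2b-c library was left out, SQN was lost in both lines and ABH1 in ada2b-c ada2a. ABH1 was also lost without ada2b-c ada2a replicate 1 or 3, and SQN there without replicate 2 or 3. SDE5 was lost without replicate 3 of either group. In ada2b-c spc, AGO3 was lost without replicate 1 or 2 of either group, and SQN also without ada2b-c spc replicate 1 or 3. After the correction ABH1, SQN, SDE5 and AGO3 passed.

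MIR162A, a precursor of miR162, whose target is DCL1, moved against DCL1 in the deposited values of ada2b-c and ada2b-c ada2a. MIR162A was 109, 148 and 186 in Col-0, 78.7, 39.2 and 67.4 in ada2b-c, and 54.3, 19.0 and 81.6 in ada2b-c ada2a. Both mutants lay below Col-0, at -1.27 ± 0.50 (adjusted p = 0.0314) and -1.69 ± 0.50 (adjusted p = 0.00622). The ada2b-c call was lost without Col-0 replicate 2, Col-0 replicate 3 or ada2b-c replicate 2, and with equal totals, at -0.73 (adjusted p = 0.175). The ada2b-c ada2a call was lost without ada2b-c ada2a replicate 2, at -1.10. The corrected values were -1.17 and -1.85 and passed, but the slope covariate turned them to 1.18 and 0.36, which did not pass. MIR168A, for AGO1, was 26.7, 11.8 and 33.1 in Col-0 and 17.5, 11.6 and 7.76 in ada2b-c, and the groups overlapped. MIR403, for AGO2, was 1.2, 19.3 and 17.6 in Col-0 and 30.7, 96.1 and 29.8 in spc, higher by 2.28 (adjusted p = 0.0154), with a corrected 0.64 that did not pass (adjusted p = 0.434). These are values of annotated precursor loci, not levels of the mature miRNAs. MIR162B and MIR168B hold the same mature sequences as MIR162A and MIR168A, and their values in each library are not listed here.

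Of 12 precursor loci tested, which include the TAS transcripts that yield ta-siRNAs, 4 were lower in ada2b-c and none higher, 5 were higher in ada2a and 4 in spc. Of all genes 33.6% were lower in ada2b-c, 19.8% higher in ada2a and 21.7% higher in spc, so the ada2b-c share was near that of the background. The correction turned these counts to 4 higher and 1 lower in ada2b-c, 1 lower in ada2a and 2 lower in spc. Of all genes 35.4% were then higher and 28.7% lower in ada2b-c, 17.9% lower in ada2a and 20.1% lower in spc. TAS3 was 604 ± 181 in Col-0, 99.8 ± 13.1 in ada2b-c, 1631 ± 859 in ada2a and 1719 ± 1116 in spc. It fell by 2.55 in ada2b-c (adjusted p = 3.99e-05), with a corrected value of -0.44 (adjusted p = 0.0656, not called) and 0.20 with the slope covariate. In ada2a and spc it rose by 1.31 and 1.36, and the corrected values were -0.11 and -0.08. In ada2b-c ada2a and ada2b-c spc it fell by 1.12 and 1.5, with corrected values of 0.53, called higher, and 0.15, not called, and it was higher in ada2b-c ada2a than in ada2b-c by 1.43. TAS3B, called lower in the 3 lines with ada2b-c, averaged 8.20 ± 7.08 in Col-0 and was listed at or near 0 in ada2b-c. The combined lines overlapped Col-0, and none of the 3 passed after the correction. In ada2a and spc it rose by 3.26 and 2.85, to 63.8 ± 46.2 and 53.7 ± 43.2, and its corrected values, 1.39 and 0.99, did not pass. TAS1C was -0.97 in ada2b-c and 0.96 after the correction, both called, and rose by 1.30 in ada2a, where MIR162B rose by 2.68. TAS1A rose by 1.07 in spc. None of these 3 rises passed after the correction (0.09, 1.83 and -0.38). Most of these deposited calls were lost when 1 of several libraries was left out, as with TAS1A, which was 0.60 without spc replicate 2.

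Of the 3 targets of TAS3, auxin response factors cut by its ta-siRNAs, ARF2 rose from 2117 ± 648 in Col-0 to 11130 ± 161 in ada2b-c, by 2.44 (adjusted p = 2.30e-06), and the corrected value was 0.08. ARF4 rose from 858 ± 74.1 to 1820 ± 61, by 1.09, but the corrected value was -0.86, called lower (adjusted p = 0.00317). ARF3 was 862 ± 124 in Col-0 and 1113 ± 15.5 in ada2b-c, which missed the threshold at 0.38 (adjusted p = 0.0821). Its corrected value was -0.57, called lower (adjusted p = 0.00225), and it was called lower in the combined lines too, at -0.90 and -0.91, and higher in ada2a, at 0.62. ARF4 fell by 0.49 in ada2a and by 0.69 in spc, with corrected values of 0.08 and 0.16, and the ada2a call was lost without any of the 6 libraries except ada2a replicate 1. In the combined lines ARF2 rose by 2.38 and 2.53, or 0.29 in each after the correction. ARF4 rose by 0.58 in ada2b-c spc, with a corrected -1.24 called lower, and was lower in ada2b-c ada2a than in ada2b-c, at -0.83.

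The members with the widest range of corrected genotype means were DCL3, at 1.94 on the log2 scale, and DCL4, at 1.70. Over the 21 libraries and 18558 genes, the corrected pattern most like that of DCL3 was that of AT5G64600, with a Pearson r of 0.949, followed by AT5G54520 at 0.925 and SAC3B at 0.923. For DCL4 it was AT4G21170 at 0.949, RPN12a at 0.945 and AT2G03510 at 0.944. These r describe libraries that share their genotype means.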

How the data were processed

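Seedling RNA was extracted with TRIzol and sequenced as paired 150-bp reads, per the labels' protocols. The submitters' processing notes name bcl2fastq, HISAT2, edgeR and TAIR10, without versions. Which program counted reads, with which annotation and whether by strand, is not given in the sources used here. The authors deposited adjusted signal values per gene that are not whole numbers, and no source states their scaling, so a count test was not used although the planned design allowed for counts, and no counting interval was given.

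Differences were fitted with limma 3.58.1 in R 4.3.3 on log2(value + 1), a scale that understates the change of low genes, for 23290 genes with a mean of at least 1. All 21 libraries entered with 1 mean per genotype, and p-values were adjusted by Benjamini-Hochberg over all genes and called below 0.05. The correction removed, per library, splines (5 degrees of freedom each) over log2 transcript length and GC content, fitted on 20180 genes with a mean of at least 10. The scripts were tested on simulated data. Figures were drawn in Python 3.11.15 with matplotlib 3.10.9. Loci and sequences come from the RefSeq annotation of TAIR10.1.

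The members, lists and tests were chosen with earlier results of these data known. The 4 largest called changes per list and comparison were named, together with all ta-siRNA targets. MIR162A, MIR168A and MIR403 were named as well, while the values of MIR168B, which also passed the filter, are not given. The 3 genes most like each of the 2 members with the widest corrected range were named too. Of 48 other pathway genes 4 were left out because the annotation gives them another name, and of 16 precursor loci 1 was; 12 of the remaining 15 were tested. The replicate numbers were not taken as pairing the libraries.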

Additional observations from a re-analysis of the deposited data

How the results depend on the processing

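Of the 100 member differences, the replicate number as a block kept 99 on their side of the threshold and added AGO1 in spc, so 9 members were called there. Same-numbered libraries did not deviate together in all comparisons. With each group compared alone, 0 members were called in gcn5, 2 in ada2a, 4 in spc, and, against ada2b-c, 5 in ada2b-c ada2a and 2 in ada2b-c spc. The length and GC correction left 3 called in ada2b-c, 3 in spc, 1 in ada2b-c ada2a and 2 in ada2b-c spc. With the block added to the correction these were 3, 4, 2 and 1. With the slope covariate, 3 were called in each line with ada2b-c, 1 in ada2a, 1 in spc, 1 between spc and ada2a, and, against ada2b-c, 2 in ada2b-c ada2a and 1 in ada2b-c spc. Scaling to equal totals moved the median of all genes to -0.37 for ada2a, -0.33 for spc, 0.22 for gcn5, 0.42 for ada2b-c and 0.35 and 0.39 for the combined lines, and turned no member's direction against Col-0. It called 1 member in ada2b-c ada2a against ada2b-c, 7 lower in ada2a and 9 lower in spc. Leaving out 1 library gave 1 to 8 calls in gcn5, 10 to 10 in ada2b-c, 2 to 5 in ada2a, 4 to 9 in spc and 9 to 10 in each combined line. After the correction the ranges were 0 to 2, 2 to 3, 2 to 5, 1 to 5, 0 to 1 (ada2b-c ada2a), 1 to 2 (ada2b-c spc) and 0 to 1 (spc against ada2a). No share of all genes was counted for the block, for equal totals or, except without gcn5 replicate 3, for the fits without 1 library. Those counts therefore cannot be set against a background.

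The correction, with or without the block, reversed these differences from Col-0, all of them called as deposited. In ada2b-c DCL1 was -0.049, DCL2 -0.0553, AGO1 -0.27, AGO2 -0.36, AGO4 -0.18, TAS1C 0.96 and ARF4 -0.86. In ada2b-c ada2a DCL1 was -0.52, DCL2 -0.0593, AGO1 -0.0194, AGO2 -0.71 and TAS3 0.53, and in ada2b-c spc DCL1 was -0.41, AGO1 -0.12, AGO2 -1.02, ARF4 -1.24 and TAS3 0.15. In ada2a ARF4 was 0.0822 and TAS3 -0.11, and in spc ARF4 was 0.16, TAS3 -0.0784 and TAS1A -0.38.

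The covariate reversed the following, some of them reversed by the correction as well. RDR6 in ada2a and AGO4 in spc were not called as deposited. In ada2b-c AGO2 was -0.53, AGO4 -0.50, TAS3 0.20, TAS3B 0.50, MIR162A 1.18 and TAS1C 1.63. In ada2b-c ada2a AGO2 was -0.73, AGO4 -0.0539, SGS3 -0.029, TAS3B 0.29, MIR162A 0.36 and TAS3 1.18, and in ada2b-c spc AGO2 was -1.0, TAS3B 0.60 and TAS3 0.92. In ada2a DCL4 was 0.0403, RDR6 0.80 and TAS3 -0.0121, and in spc DCL4 was 0.44, AGO4 0.66, RDR6 0.055, SDE3 0.0696, TAS3 -0.20 and TAS1A -0.35. The cause was not tested. Depth is unknown, so it could not be weighed for low genes such as DCL3.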
